A study of Homo sapiens with 14 samples.

Results

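Mitochondrial carriers and related transporters of the inner mitochondrial membrane were followed through a purification of ribosomes on Flag-tagged EMC, the ER membrane protein complex. The genes were chosen by symbol alone: the SLC25A carriers, the sideroflexins SFXN1 to SFXN5 and the pyruvate carrier subunits MPC1 and MPC2, with at least 20 counts summed over the 14 libraries. Of 19440 symbols, 55 matched and 42 reached that sum: 35 SLC25A genes, 5 sideroflexins and both pyruvate carrier subunits. After a filter on low counts 31 of the 42 were tested, namely 26 SLC25A genes, SFXN1, SFXN2, SFXN4, MPC1 and MPC2. SFXN4, SLC25A44 and SLC25A26 were the members whose footprints rose by a log2 change above 1 on average over the 3 lines, whereas the members with the most counts, SLC25A5 and SLC25A3, had mean changes of -0.18 and -0.05 that did not pass the test.

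EMC is an insertase of the endoplasmic reticulum (ER), the membrane where most multi-pass transporters of the cell surface and of other organelles of the secretory route are made. Mitochondrial carriers are also multi-pass proteins, but they are made in the cytosol and cross the outer mitochondrial membrane through the TOM complex. Small TIM chaperones then pass them to the TIM22 complex, which inserts them in the inner membrane. Carriers exchange nucleotides, phosphate, carboxylates, amino acids and cofactors between cytosol and matrix. Sideroflexins are multi-pass inner membrane proteins, one of which, SFXN1, carries serine, and MPC1 and MPC2 together form the carrier by which pyruvate enters the matrix. Some SLC25 proteins lie elsewhere: SLC25A17 is a carrier of the peroxisome membrane and SLC25A46 a protein of the outer mitochondrial membrane.

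The libraries hold ribosome footprints, the stretches of messenger RNA that translating ribosomes shield from RNase, from Flp-In T-REx 293 cells, a human embryonic kidney line (HEK293) with a site for inducible transgenes. In the EMC6 line the cells lacked their own EMC6 and carried a doxycycline-inducible 3Flag-EMC6. The EMC7 and EMC10 lines carried an inducible 3Flag-EMC7 or 3Flag-EMC10, and their labels name no knockout. All cells received doxycycline at 0.5 to 1.0 ng/mL for 72 h and cycloheximide at harvest, and tagged subunits were made at about endogenous amounts according to the series' design text. Microsomes were treated with micrococcal nuclease, pelleted and solubilized. The cleared extract is the input, and what anti-Flag beads took from it is the immunoprecipitate (IP). There were 2 inputs and 2 IPs for EMC6, 2 and 2 for EMC7, and 3 and 3 for EMC10. No IP from cells without a tag is among the 14 libraries, so ribosomes held by EMC and ribosomes that stuck to the beads in another way cannot be told apart. The labels do not say whether replicates came from separate cultures, and where they did not the p-values cover technical spread alone.

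Counts on genes ranged from 1692490 to 3395114 in the inputs and from 515302 to 2248591 in the IPs, and the EMC6 IPs were the shallowest. The EMC6 line also stood apart in its content: its inputs held fewer footprints of ER proteins than the other inputs, with 114 of 174 tested SLC genes outside SLC25 (SLC8B1 and SLC30A9 left out) and 68 of 75 secreted or ER luminal proteins lower. Of all tested genes 21.8% were lower in the same comparison. Members called in any comparison are therefore given by line, and gene lists and the other members mostly by the mean of the 3 lines. Among HEK293 markers, NEFL, INA, VIM, KRT8, KRT18 and CDH2 had counts in all 14 libraries, whereas PAX2 had 41 counts in all, NEFM 1 and LHX1 0. Of the 9 markers of immune, liver, mature kidney, muscle and glial cells, PTPRC and ALB were at 0 and none exceeded 4 counts in all. Levels below are counts scaled to a common library size with TMM factors (CPM), changes are log2 ratios of IP to input ± SE, and adjusted p-values are from edgeR's quasi-likelihood test with Benjamini-Hochberg adjustment over 9458 genes. A gene is called at an adjusted p under 0.05. Counts are not divided by gene length, so levels of different genes are not ranked. Libraries are bulk, so fewer cells translating a gene and fewer footprints per cell cannot be told apart.

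Most of these genes were not called in either direction. In the EMC6 line 3 of 31 rose (SFXN4, SLC25A17 and SLC25A44) and 0 fell, where 17.6% of all tested genes rose and 9.27% fell. With EMC7 5 rose (SFXN4, SLC25A14, SLC25A26, SLC25A32 and SLC25A44) and 0 fell, beside 20.4% and 9.7% of all genes. In the EMC10 line 5 rose (SFXN4, SLC25A17, SLC25A26, SLC25A39 and SLC25A44) and 0 fell, beside 19.9% and 13.9% of all genes. Averaged over the 3 lines, 6 rose and 1, SLC25A13, fell, which is 19.4% and 3.23% of the 31, beside 23.7% and 26.9% of all genes. In each line the share of members that rose, 9.68%, 16.1% and 16.1%, was likewise below that of all genes under this scaling. A single member is 3.23% of the 31, so with EMC7, with EMC10 and over the mean the shares that rose were near those of all genes. The shares that fell were below those of all genes in each line and over the mean under this scaling. The order of the shares that rose also depended on scaling. With libraries scaled on soluble matrix proteins 16.1%, 29.0% and 22.6% of members rose in the lines, beside 19.8%, 23.1% and 22.7% of all genes. Over the mean 35.5% of members then rose, beside 28.1% of all genes. At an unadjusted p under 0.05 the members that differed in either direction numbered 7 with EMC6, 6 with EMC7 and 7 with EMC10, which is 22.6%, 19.4% and 22.6% of the 31, beside 36.7%, 38.7% and 42.4% of all genes. DESeq2 called 0 lower in each single line as well, beside 3.55%, 5.71% and 7.86% of all genes.

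TMM scaling sets the middle of the genes near 0, and averaged over the lines the median change over all genes was -0.19. The median of the 31 members was 0.12, which is 0.31 above that of all genes. The corresponding distance was 0.16 with EMC6, 0.45 with EMC7 and 0.12 with EMC10, with 19, 23 and 21 of the 31 above the median of all genes. Taken pair by pair, the distance of the members' median ran from -0.03 to 0.31 and was below 0 in the first EMC10 pair. Of the 31, 26 had a mean change smaller than 0.6 in size, and 13 kept 1 sign in all 3 lines, 9 above 0 and 4 below. In 7 pairs of 7, SFXN4, SLC25A44, SLC25A26, SLC25A14, SLC25A17, SLC25A39 and SLC25A20 lay above the median of all genes.

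**Figure D1:**
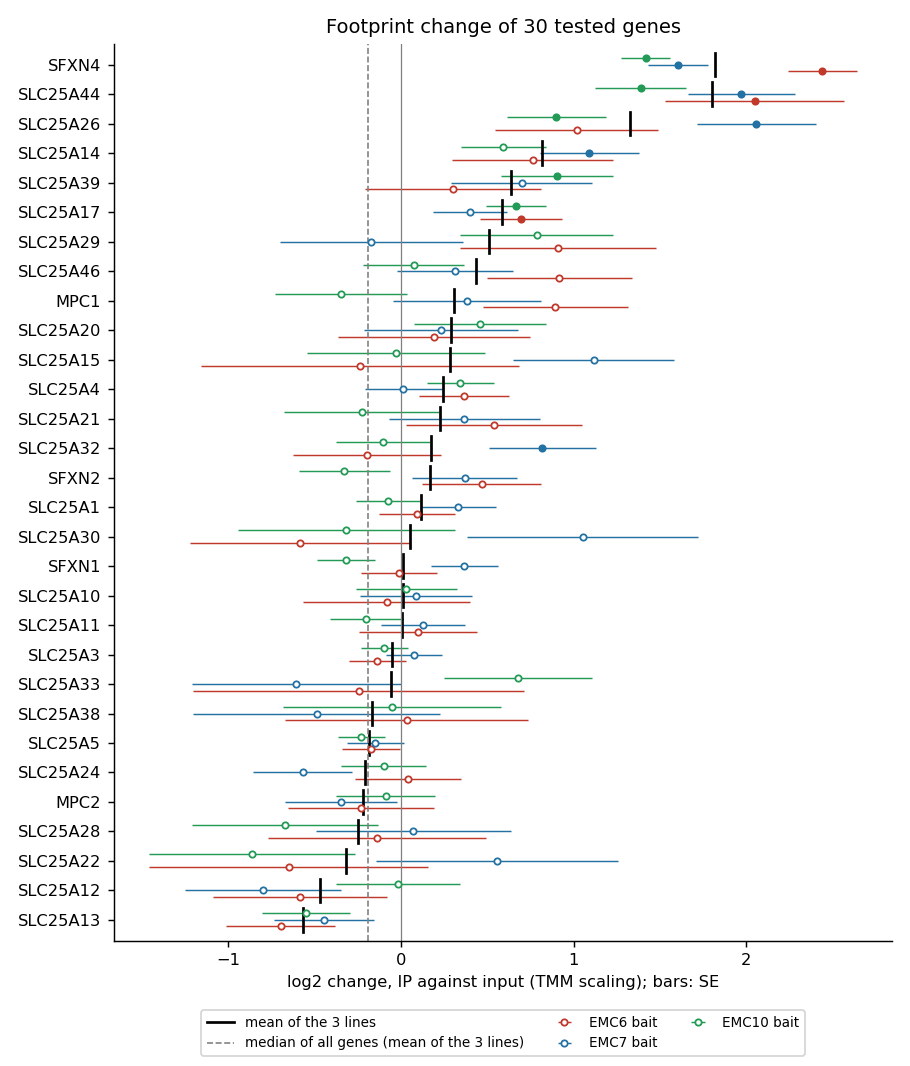
Log2 change of footprints, IP against input, for 30 of the 31 tested genes (vertical axis), with 1 point per bait and its SE (horizontal bars). Filled points passed an adjusted p of 0.05, black ticks give the mean of the 3 lines and the dashed line the median of all genes (-0.19). SFXN4 and SLC25A44 are filled in all 3 lines, and most points of the other genes are open. Of the 31 tested genes, 24 had a mean above the dashed line.

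SFXN4, a sideroflexin needed for the assembly of respiratory complex I, showed the largest rise of the 31 genes. It lies on chromosome 10 (119140767 to 119165714, GRCh38). In the EMC6 line it stood at 26.3 and 30.7 CPM in the inputs and at 147 and 161 CPM in the IPs. With EMC7 its inputs held 69.0 and 64.7 CPM and the IPs 206 and 200 CPM. In the EMC10 line the inputs held 68.4, 75.1 and 75.0 CPM and the IPs 200, 186 and 199 CPM. Every IP was above every input, and the EMC6 inputs were the lowest of all libraries. The changes were 2.44 ± 0.20 with EMC6 (5.43-fold, adjusted p = 1.38e-12), 1.603 ± 0.17 with EMC7 (3.04-fold, adjusted p = 1.02e-09) and 1.42 ± 0.14 with EMC10 (2.67-fold, adjusted p = 1.35e-10). Raw counts behind these values ran from 73 to 343 per input and from 79 to 288 per IP.

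The other sideroflexins did not show this. SFXN1, the serine carrier, stood at 55.8 and 48.4 CPM in the EMC6 inputs and at 54.0 and 50.2 CPM in the EMC6 IPs. It stood at 43.8 and 43.9 CPM in the EMC7 inputs and 54.5 and 59.2 CPM in the EMC7 IPs, and at 48.1, 55.4 and 52.0 CPM against 42.0, 42.0 and 40.9 CPM in the EMC10 line. The IPs were above the inputs with EMC7, below them with EMC10 and within their range with EMC6, and none of the 3 differences passed the test (mean change 0.01 ± 0.11, 95% interval -0.21 to 0.24, adjusted p = 0.93). SFXN2 stood at 14.7 to 19.4 CPM in the EMC6 inputs and 20.7 to 27.9 CPM in the EMC6 IPs. With EMC7 it stood at 17.1 and 15.1 CPM against 25.8 and 14.5 CPM, and with EMC10 at 17.1, 25.0 and 20.8 CPM against 22.8, 13.4 and 15.2 CPM, so inputs and IPs overlapped in both lines. Its mean change was 0.17 ± 0.18 (adjusted p = 0.44). SFXN3, with 39 counts over all inputs and 14 over all IPs, and SFXN5, with 32 and 6, were too low to test.

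**Figure D2:**
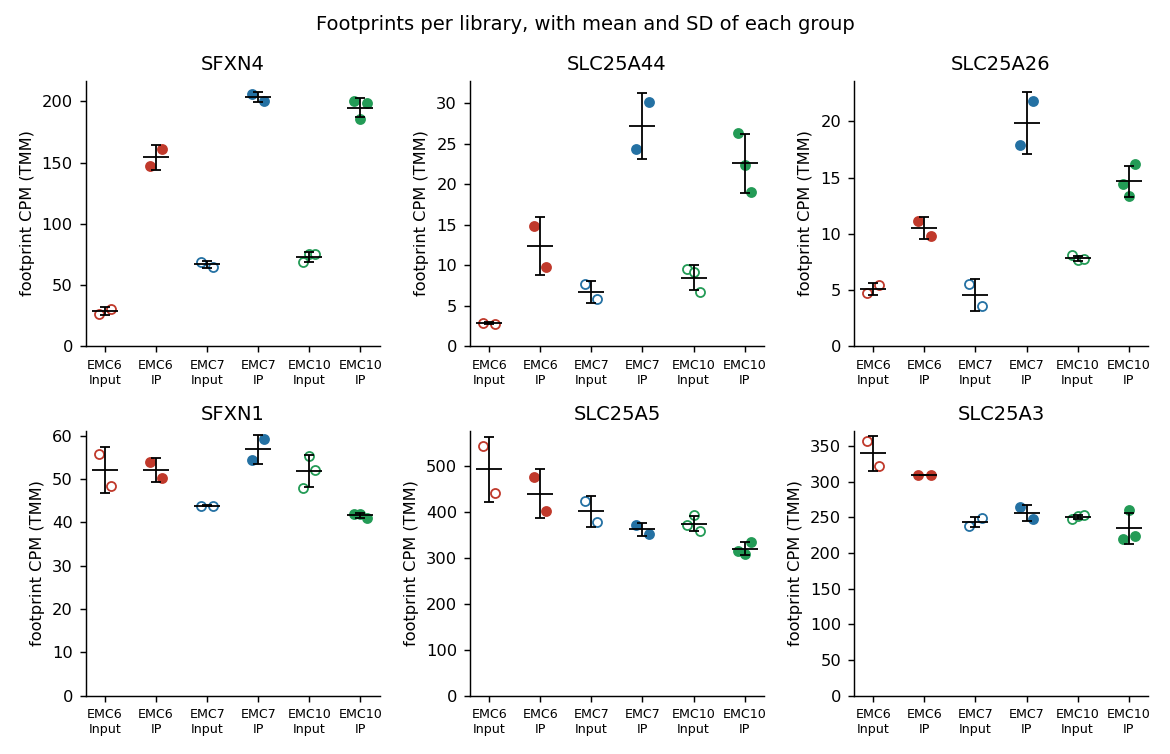
Footprint level (CPM after TMM scaling, vertical axis from 0) of 6 genes in each library, inputs as open and IPs as filled points by line, with the mean and SD of each group in black. For SFXN4, SLC25A44 and SLC25A26 every IP is above every input of its line, while IPs and inputs of SFXN1, SLC25A5 and SLC25A3 lie close together.

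Among the carriers of amino acids, carnitine and choline, 8 of 9 genes were tested. Over the mean of the 3 lines 1 rose and 1 fell, beside 23.7% and 26.9% of all genes. SLC25A44, the carrier of branched-chain amino acids (chromosome 1, 156194104 to 156212796), stood at 2.88 and 2.73 CPM in the EMC6 inputs and 14.9 and 9.82 CPM in the EMC6 IPs. In the EMC7 line it stood at 7.65 and 5.77 CPM in the inputs and 24.4 and 30.1 CPM in the IPs. In the EMC10 line the inputs held 9.47, 9.19 and 6.67 CPM and the IPs 26.4, 22.3 and 19.03 CPM. Every IP was above every input, as for SFXN4. The changes were 2.05 ± 0.52 with EMC6 (adjusted p = 0.0025), 1.97 ± 0.31 with EMC7 (adjusted p = 2.5e-06) and 1.39 ± 0.26 with EMC10 (adjusted p = 4.7e-05). They rest on few counts, 8 to 42 per input and 8 to 34 per IP.

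SLC25A13, citrin, an aspartate and glutamate carrier of the malate-aspartate shuttle, was the member that fell. It stood at 65.5 and 52.8 CPM in the EMC6 inputs and at 63.3 and 18.5 CPM in the EMC6 IPs. In the EMC7 line the inputs held 47.0 and 37.5 CPM and the IPs 33.7 and 28.05 CPM, and in the EMC10 line the inputs held 44.8, 35.03 and 40.8 CPM and the IPs 36.0, 25.9 and 21.9 CPM. Inputs and IPs overlapped with EMC6 and EMC10 but not with EMC7, and the EMC6 IPs were far apart. It fell by 0.56 ± 0.17 over the mean of the 3 lines (adjusted p = 0.0054) but was called in no single line, where the changes were -0.69 ± 0.32, -0.44 ± 0.29 and -0.55 ± 0.25. Without the second EMC6 IP its mean change was -0.31 (adjusted p = 0.096). With input and IP of the same replicate paired (a replicate block), and likewise without the filter on low counts, it was also called lower in the EMC6 and EMC10 lines.

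The other 6 tested genes of this group were SLC25A12 (the second aspartate and glutamate carrier), SLC25A15 (ornithine), SLC25A20 (carnitine and acylcarnitine), SLC25A22 (glutamate), SLC25A29 (basic amino acids) and SLC25A38 (glycine). Their mean changes ran from -0.47 ± 0.26 for SLC25A12 to 0.51 ± 0.30 for SLC25A29, and none was called. The SLC25A29 locus overlaps that of YY1, a transcription factor, over 4222 bases, and YY1 fell by 0.39 ± 0.12 (adjusted p = 0.0073).

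Among the 7 carriers of nucleotides and cofactors 5 were tested and 2 rose over the mean of the 3 lines, beside 23.7% of all genes. SLC25A26 brings S-adenosylmethionine, the methyl donor, into the matrix (chromosome 3, 66133610 to 66378927). It stood at 4.68 and 5.45 CPM in the EMC6 inputs and at 11.2 and 9.82 CPM in the EMC6 IPs. In the EMC7 line the inputs held 5.56 and 3.52 CPM and the IPs 17.9 and 21.8 CPM, and in the EMC10 line the inputs held 8.09, 7.66 and 7.74 CPM and the IPs 14.4, 13.4 and 16.2 CPM. Every IP was above every input. The changes were 2.06 ± 0.34 with EMC7 (4.16-fold, adjusted p = 7.1e-06), 0.90 ± 0.29 with EMC10 (adjusted p = 0.013) and 1.02 ± 0.47 with EMC6, which missed the threshold (adjusted p = 0.11). Without the third EMC10 IP it was not called in that line. Its locus shares 131 bases with that of LRIG1, a single-pass receptor-like membrane protein that also rose (1.02 ± 0.10 over the mean, adjusted p = 7.5e-11), and the part of the shared bases in these counts was not tested.

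SLC25A17, the peroxisomal carrier of coenzyme A, FAD and NAD, stood at 34.6 and 39.5 CPM in the EMC6 inputs and at 44.7 and 70.9 CPM in the EMC6 IPs. In the EMC7 line the inputs held 44.0 and 38.8 CPM and the IPs 53.8 and 56.1 CPM, and in the EMC10 line the inputs held 33.5, 39.2 and 43.2 CPM and the IPs 54.0, 67.0 and 61.8 CPM. Inputs and IPs did not overlap in any line. The changes were 0.69 ± 0.24 with EMC6 (adjusted p = 0.026), 0.40 ± 0.21 with EMC7 (adjusted p = 0.165) and 0.67 ± 0.18 with EMC10 (adjusted p = 0.0027). The call with EMC6 was lost without the first EMC6 input, without the second EMC6 IP or with a fit of the EMC6 libraries alone.

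SLC25A32, the carrier of folate and FAD, was called in the EMC7 line and in neither other line, though the difference between baits was not called. Its EMC7 inputs held 10.9 and 9.61 CPM and its IPs 17.9 and 18.7 CPM (0.82 ± 0.31, adjusted p = 0.042). Its EMC6 inputs held 10.1 and 11.9 CPM and its EMC6 IPs 9.31 and 9.82 CPM (-0.19 ± 0.43). The EMC10 inputs held 14.6, 14.4 and 12.5 CPM and the IPs 8.39, 17.0 and 12.4 CPM (-0.10 ± 0.27). The EMC7 call was lost when any one of the 4 EMC7 libraries, the first EMC10 input or the second EMC10 input was left out, without the filter and with DESeq2 (adjusted p = 0.059). SLC25A33, which carries pyrimidine nucleotides, had a mean change of -0.06 ± 0.40.

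SLC25A14, a carrier related to the uncoupling proteins, rose by 0.82 ± 0.20 over the mean of the 3 lines (adjusted p = 0.00095). It stood at 7.56 and 8.52 CPM in the EMC6 inputs and at 11.2 and 15.3 CPM in the EMC6 IPs. With EMC7 its inputs held 15.5 and 18.6 CPM and the IPs 35.1 and 37.4 CPM (1.09 ± 0.29, adjusted p = 0.0027). In the EMC10 line the inputs held 18.9, 15.5 and 23.2 CPM and the IPs 19.2, 21.4 and 44.7 CPM, so that the groups overlapped and the third IP was far above the others (0.59 ± 0.25, adjusted p = 0.060). With paired replicates it was called in that line too. SLC25A30, the other tested carrier of this kind, had a mean change of 0.05 ± 0.36 on at most 24 counts per library.

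SLC25A39, which brings glutathione into the matrix, stood at 5.40 and 6.81 CPM in the EMC6 inputs and at 7.45 and 7.64 CPM in the EMC6 IPs. With EMC7 its inputs held 6.02 and 5.45 CPM and the IPs 7.17 and 12.5 CPM, and in the EMC10 line the inputs held 5.54, 5.47 and 7.20 CPM and the IPs 13.2, 11.6 and 9.52 CPM. No line showed an overlap, though the distance was small with EMC6. It rose with EMC10 (0.90 ± 0.33, adjusted p = 0.029) and over the mean (0.64 ± 0.25, adjusted p = 0.031). The mean call was lost without the filter on low counts and without the first EMC6 input, the second EMC6 IP, the second EMC7 input or the second EMC7 IP, and the EMC10 call without that filter or without any one of the first 2 inputs or first 2 IPs of that line. SLC25A28, mitoferrin 2, which imports iron, had a mean change of -0.24 ± 0.33.

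None of the carriers of ATP, phosphate and citrate was called. SLC25A5, an ADP/ATP carrier, stood at 542 and 442 CPM in the EMC6 inputs and at 477 and 401 CPM in the EMC6 IPs. It stood at 424 and 377 CPM against 371 and 352 CPM with EMC7, and at 371, 393 and 359 CPM against 315, 308 and 335 CPM with EMC10. The IPs lay below the inputs with EMC7 and EMC10 and overlapped them with EMC6, and the mean change was -0.18 ± 0.09 (adjusted p = 0.093), close to the median of all genes. With paired replicates it was called lower over the mean (-0.18, adjusted p = 0.00098) and in the EMC10 line, and without the second EMC6 input it was called over the mean as well (-0.21, adjusted p = 0.042).

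SLC25A3, the phosphate carrier that supplies ATP synthase, stood at 357 and 323 CPM in the EMC6 inputs and at 309 and 310 CPM in the EMC6 IPs. With EMC7 the inputs held 238 and 249 CPM and the IPs 264 and 248 CPM, and with EMC10 the inputs held 248, 252 and 253 CPM and the IPs 219, 260 and 225 CPM. Inputs and IPs overlapped with EMC7 and EMC10 and the IPs were lower with EMC6, and the mean change was -0.05 ± 0.09 (adjusted p = 0.66). SLC25A4, the ADP/ATP carrier of heart and muscle, held 32.8 and 31.3 CPM against 54.0 and 32.7 CPM with EMC6, and 45.9 and 43.6 CPM against 41.6 and 49.9 CPM with EMC7. With EMC10 it held 32.1, 30.6 and 34.7 CPM against 52.8, 37.5 and 35.2 CPM, with a mean change of 0.24 ± 0.13 (adjusted p = 0.12). Its IPs were all above its inputs with EMC10 but overlapped them with EMC7, and DESeq2 called it higher over the mean (0.34, adjusted p = 0.047), as did edgeR without the second EMC6 IP (0.36, adjusted p = 0.042).

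SLC25A1, the citrate carrier, stood at 60.5 and 71.9 CPM in the EMC6 inputs and at 76.3 and 66.5 CPM in the EMC6 IPs. With EMC7 it stood at 43.8 and 36.2 CPM against 48.7 and 53.0 CPM, and with EMC10 at 40.7, 46.4 and 37.1 CPM against 36.0, 49.1 and 32.4 CPM, and its mean change was 0.12 ± 0.12 (adjusted p = 0.435). Inputs and IPs of SLC25A1 overlapped with EMC6 and EMC10, and the EMC7 IPs were the higher ones. All 4 di- and tricarboxylate carriers were tested and 0 were called: the mean changes of SLC25A10 (dicarboxylate), SLC25A11 (oxoglutarate) and SLC25A21 (oxodicarboxylate) ran from 0.01 to 0.23. Of the 4 ATP-Mg and phosphate carriers, SLC25A24 alone was tested, and its mean change was -0.21 ± 0.16.

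The subunits of the pyruvate carrier were not called in any line. MPC1 stood at 8.64 and 7.84 CPM in the EMC6 inputs and at 22.3 and 10.9 CPM in the EMC6 IPs. With EMC7 it stood at 6.26 and 6.09 CPM against 7.17 and 9.35 CPM, and with EMC10 at 7.39, 8.10 and 7.47 CPM against 9.59, 5.36 and 3.81 CPM. Its IPs were above its inputs with EMC6 and EMC7 and spread on both sides of them with EMC10 (mean change 0.31 ± 0.24, adjusted p = 0.28). MPC2 stood at 11.2 and 12.9 CPM against 9.31 and 10.9 CPM with EMC6, and at 14.8 and 17.6 CPM against 14.3 and 10.4 CPM with EMC7. With EMC10 it stood at 12.2, 12.3 and 14.9 CPM against 10.8, 8.93 and 17.1 CPM, and the mean change was -0.22 ± 0.20 (adjusted p = 0.37). The MPC2 IPs were below the inputs with EMC6 and EMC7 and overlapped them with EMC10. The whole MPC2 locus, 20398 bases, lies within that of DCAF6, whose mean change was -0.19 ± 0.23. SLC25A46, the outer membrane member, had changes of 0.92 ± 0.42 with EMC6, 0.31 ± 0.33 with EMC7 and 0.07 ± 0.29 with EMC10, none of which was called.

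Ratios of raw counts inside a library do not depend on how libraries are scaled, and these were chosen after the values of the genes had been seen. Per count of SFXN1, SFXN4 had 0.471 and 0.634 counts in the EMC6 inputs and 2.72 and 3.22 in the EMC6 IPs. It had 1.58 and 1.47 in the EMC7 inputs and 3.79 and 3.39 in the EMC7 IPs. In the EMC10 line it had 1.42, 1.36 and 1.44 in the inputs and 4.77, 4.43 and 4.86 in the IPs. The ratio was higher in every IP than in any input. Per 1000 counts of SLC25A5, SLC25A44 had 5.31 to 25.5 counts in the inputs and 24.5 to 85.5 in the IPs, and the ratio was higher in the IP in all 7 pairs.

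**Figure D3:**
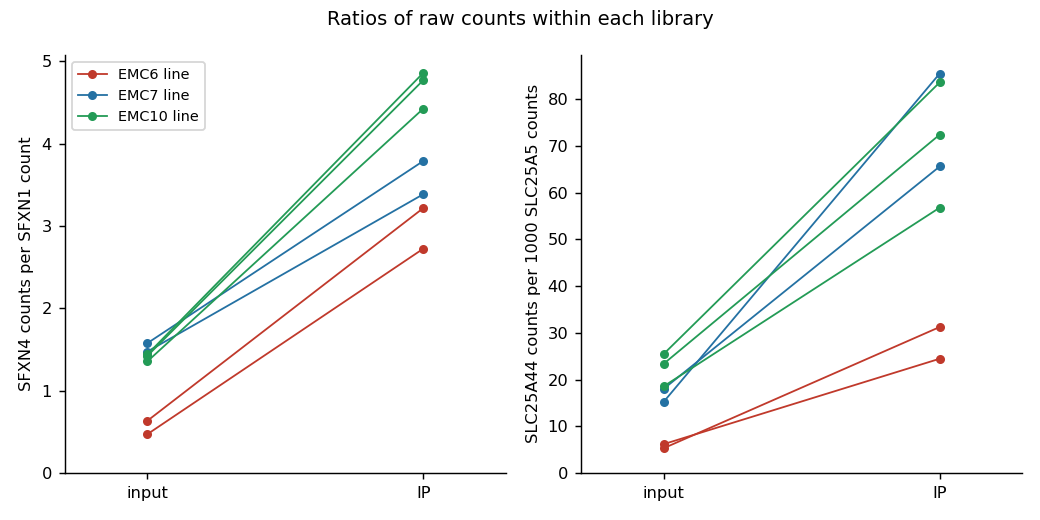
Raw counts of SFXN4 per count of SFXN1 (left) and of SLC25A44 per 1000 counts of SLC25A5 (right), with a line joining the input and the IP of each of the 7 pairs, coloured by line. All 7 lines go up in both panels, and the EMC6 line starts and ends lowest.

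As a share of all gene counts, the 42 genes made up 0.200% to 0.228% of the EMC6 inputs and 0.147% to 0.158% of the other inputs. In the IPs the share was 0.130% to 0.156% with EMC6 and 0.0734% to 0.0886% with EMC7 and EMC10, lower than in every input of the same line. Without the messages of the 3 baits the IPs of EMC7 and EMC10 held 0.0977% to 0.106%. On the TMM scale the sum over the 42 genes went the other way in each of the 7 pairs, from 1128 to 1393 CPM in the inputs to 1218 to 1495 CPM in the IPs, so the direction of the sum depends on the scaling. SFXN4 weighed heavily in that rise. In the first pair of each line the sum went from 1393 to 1495 CPM (EMC6), 1201 to 1390 CPM (EMC7) and 1129 to 1218 CPM (EMC10). SFXN4 itself went from 26.3 to 147, from 69.0 to 206 and from 68.4 to 200 CPM there. Its rise exceeded that of the sum in the EMC6 and EMC10 pairs but not in the EMC7 pair. Within this sum the make-up moved: SFXN4 took 1.89% to 6.53% of the members' counts in inputs and 9.84% to 16.4% in IPs, while SLC25A5 took 31.3% to 38.9% and 24.9% to 31.9%. These shares are of counts and not per gene length.

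Genes that act with the carriers were also measured, from lists chosen with earlier results known, and counts below are over the mean of the 3 lines. Over that mean 23.7% of all tested genes rose and 26.9% fell. Of the TOM, small TIM and TIM22 proteins that import carriers, 2 of 12 rose and 1 fell: the TIM22 subunit TIMM29 (0.54 ± 0.16, adjusted p = 0.0045) and the pore TOMM40 (0.37 ± 0.11, adjusted p = 0.0032) rose, and the receptor TOMM70, to which carriers bind, fell by 0.60 ± 0.11 (adjusted p = 3.6e-05). Of the TIM23 route for proteins with a presequence, 3 of 8 rose and 1 fell, with TIMM21 at 0.90 ± 0.13 and GRPEL1 at -0.41 ± 0.17. The median of these lists was 0.19 and 0.18 above that of all genes.

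Among 36 other multi-pass proteins of the inner membrane 17 rose and 2 fell, beside 23.7% and 26.9% of all tested genes. The median of the 36 was 0.41 above that of all genes, beside 0.31 for the carriers and their 6 rises of 31. The largest rises were those of SLC8B1, the sodium/calcium exchanger of mitochondria (2.35 ± 0.16), and COQ2, an enzyme of coenzyme Q synthesis (a mean of 20.8 CPM in the inputs and 85.6 CPM in the IPs). HIGD1A and NDUFA11 fell by 0.53 ± 0.22 and 0.33 ± 0.13. Of 73 soluble matrix proteins 4 rose and 26 fell, with a median 0.007 above that of all genes. Of 30 outer membrane proteins 8 rose and 7 fell, near the shares of all genes. The largest rise there was that of MTCH1, itself a relative of the carriers that sits in the outer membrane (1.46 ± 0.12), and the largest fall that of MFF, a fission factor (-0.91 ± 0.29). Of 14 peroxisome membrane proteins 7 rose and 1 fell, with a median 0.93 above that of all genes and the largest rise at ABCD4 (3.60 ± 0.12).

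The SLC genes outside SLC25, most of which are made at the ER, gave the contrast in size. SLC8B1 and SLC30A9 were left out of this set, as they were counted with the inner membrane proteins. Of 174 tested 172 rose and 0 fell over the mean of the 3 lines, beside 23.7% and 26.9% of all genes. Their median was 2.62 above that of all genes. The filter on low counts kept these 174 of 318 symbols, and a gene low in the inputs could pass it by its IPs alone. Such a gene enters only by rising, and the part of this in the count and the median was not tested. The lowest change of the 174 was 0.46 and the highest 4.92, whereas the 31 members ran from -0.56 to 1.82. The highest was that of SLC9A3, with a mean of 0.70 CPM in the inputs and 17.3 CPM in the IPs. All 31 members, SFXN4 included, were below the median change of the other SLC genes, 2.44, and the ranges of single genes overlapped. Of 75 secreted or ER luminal proteins 39 rose and 1 fell, with a median 0.50 above that of all genes.

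**Figure D4:**
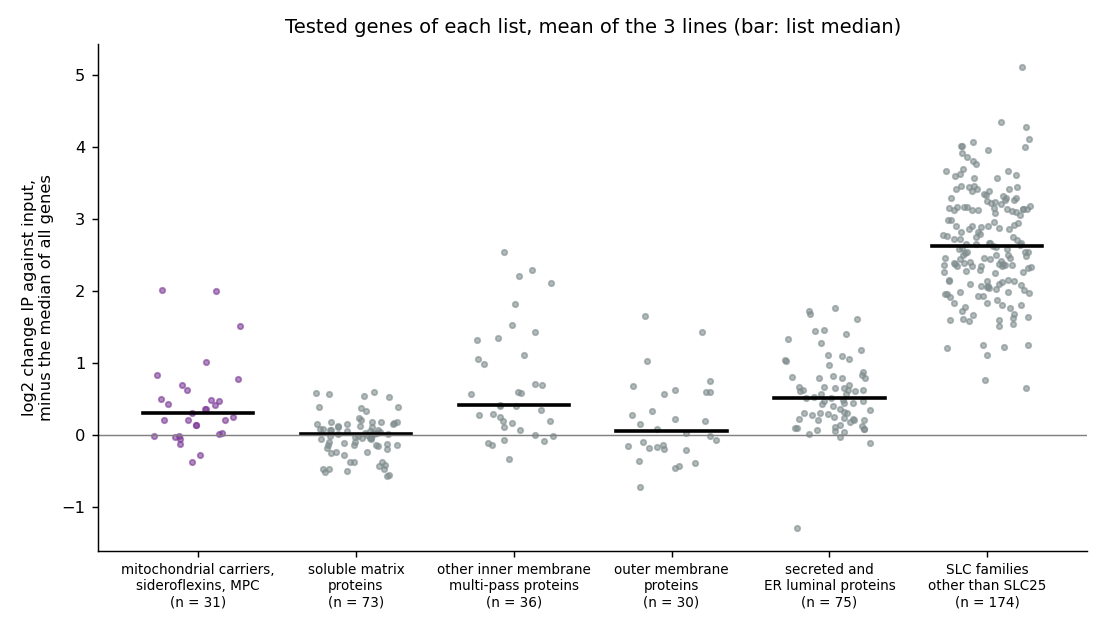
Log2 change of IP against input over the mean of the 3 lines, minus the median of all genes (vertical axis), with 1 point per tested gene, for the 31 mitochondrial carriers and related genes and for 5 other lists. Black bars are list medians: 0.31 for the carriers, 0.007 for matrix proteins, 0.41 for other inner membrane proteins, 0.05 for outer membrane proteins, 0.50 for secreted and luminal proteins and 2.62 for other SLC families.

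Differences between baits turned on SFXN4, and its calls depended on pairing of input and IP, on scaling and on the method. The difference between the EMC6 and EMC7 changes was called for 0 of 31 members (0.518% of all genes), that between EMC6 and EMC10 for 0 (0.074% of all genes) and that between EMC7 and EMC10 for 0 (0.159% of all genes), by edgeR's quasi-likelihood test. At an unadjusted p under 0.05 there were 1, 2 and 3 members, beside 8.96%, 6.25% and 6.56% of all genes. The smallest of the unadjusted p-values was that of SFXN4, whose change with EMC6 exceeded that with EMC7 by 0.84 ± 0.26 (95% interval 0.32 to 1.35, adjusted p = 0.14) and that with EMC10 by 1.02 ± 0.24 (0.55 to 1.50, adjusted p = 0.16). The EMC6 inputs were low in SFXN4, as described next, and its EMC6 IPs were lower than the other IPs. SLC25A26 had a larger change with EMC7 than with EMC10 by 1.16 ± 0.44 (0.30 to 2.02, adjusted p = 0.45). With each IP paired to its input (the replicate block) SFXN4 was called in both comparisons, at 0.83 ± 0.21 against EMC7 (adjusted p = 0.0019) and 1.02 ± 0.20 against EMC10 (adjusted p = 6.1e-05), where 6.31% and 2.22% of all genes were called. No other member was called in these comparisons, and between EMC7 and EMC10 it called 0 members beside 4.37% of all genes. DESeq2 called SFXN4 between EMC6 and EMC7 (0.90 ± 0.26, adjusted p = 0.018, beside 1.4% of all genes) and gave it no adjusted p between EMC6 and EMC10. With library size alone edgeR called it against EMC7 (1.15, adjusted p = 0.0086) and EMC10 (1.43, adjusted p = 0.00058), beside 2.29% and 5.22% of all genes. Scaled on secreted and luminal proteins, it was called against EMC7 alone (1.17, adjusted p = 0.015, beside 2.1% of all genes). Scaled on matrix proteins, or without the filter on low counts, it was called in neither. The 95% intervals do not show that the baits act alike for the other members.

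Between the inputs the EMC6 line differed for 9 members. SLC25A30 (1.54 ± 0.38), SLC25A1 (0.70 ± 0.16), SLC25A13 (0.52 ± 0.20), SLC25A3 (0.46 ± 0.13) and SLC25A5 (0.34 ± 0.13) were higher than in the mean of the other inputs, where 15.3% of all genes were higher. SLC25A44 (-1.43 ± 0.35), SFXN4 (-1.29 ± 0.17), SLC25A14 (-1.15 ± 0.27) and SLC25A11 (-0.83 ± 0.20) were lower, where 21.8% of all genes were lower. Of the 4 that were lower, SLC25A44, SFXN4 and SLC25A14 also rose in the IPs over the mean of the 3 lines, and a comparison of IP with input shares the same inputs. The median over the 31 members was 0.06 below that of all genes. Line, knockout and any batch of the line cannot be told apart here, and with libraries scaled on secreted and luminal proteins, which were lower in the EMC6 inputs, 23 members were higher and 0 lower. Of all genes 74.1% were then higher, near the 74.2% of members, and 2.44% lower.

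How many members rose or fell depended on the scaling. The median of all genes, averaged over lines, was -0.19 under TMM and -0.10 under DESeq2. It was 0.06 with scaling on matrix proteins, -0.62 with scaling on secreted and luminal proteins and -1.13 with library size alone. SFXN4 was called higher in each line and over the mean under all 5 scalings, from 0.88 with library size alone to 2.07 with the matrix list over the mean. SLC25A44 was called higher over the mean under all 5, from 0.86 to 2.06, and in the EMC10 line under all but library size alone (0.28, adjusted p = 0.33). SLC25A26 was called over the mean under all but library size alone (0.38, adjusted p = 0.097), but in the EMC10 line not with the secreted and luminal list (0.56, adjusted p = 0.10) nor with library size alone. Scaled on secreted and luminal proteins, SLC25A14 (0.37), SLC25A39 (0.21) and SLC25A17 (0.15) were not called over the mean. SLC25A17 turned to -0.36, SLC25A14 to -0.13 and SLC25A39 to -0.31 with library size alone. SLC25A13 was below 0 under all 5 and called lower under all but the matrix list (-0.31, adjusted p = 0.14). With library size alone 2 members rose and 24 fell, beside 12.1% and 76.9% of all genes, so that the share of members that fell was near that of all genes. With secreted and luminal proteins 3 rose and 9 fell, beside 18% and 57.6% of all genes. With DESeq2 7 rose and 1 fell, beside 24.9% and 17.1%, and with the matrix list 11 rose and 0 fell, beside 28.1% and 10.3%.

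**Figure D5:**
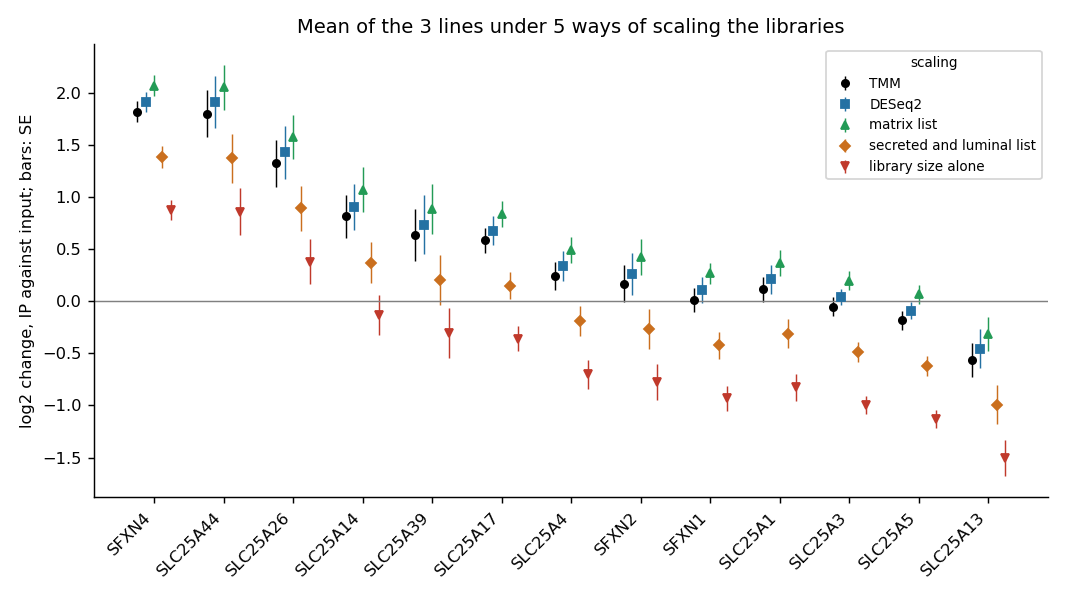
Log2 change of IP against input over the mean of the 3 lines (vertical axis, with SE) for 13 genes under 5 ways of scaling the libraries. SFXN4 and SLC25A44 stay above 0 under each, SLC25A13 stays below 0 under each, and SLC25A17, SLC25A14 and SLC25A39 fall below 0 with library size alone.

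The 11 members that were not tested (SFXN3, SFXN5, SLC25A16, SLC25A23, SLC25A25, SLC25A35, SLC25A36, SLC25A37, SLC25A40, SLC25A41 and SLC25A48) together had 470 counts over the 7 inputs and 148 over the 7 IPs, at most 20 in any input and 6 in any IP. With no filter on low counts, SLC25A25, an ATP-Mg and phosphate carrier, was called lower over the mean and in the EMC7 line (91 counts over the inputs and 11 over the IPs), and SLC25A48 higher over the mean (39 and 25). For the rest no difference between IP and input was detectable at this depth. A further 13 matching symbols stayed below 20 counts, with 51 counts in all, and SLC25A2, SLC25A6, SLC25A34, SLC25A43, SLC25A47 and SLC25A52 were at 0 in every library. Why SLC25A6 was at 0 was not tested. SLC25A6 is closely related to SLC25A4 and SLC25A5, and 9 named pseudogenes of SLC25A5, 5 each of SLC25A1 and SLC25A15 and 3 of SLC25A3 are annotated, so the counts of these genes are uncertain. SFXN4 has 1 named pseudogene and SLC25A44 has 0, and neither locus overlaps another annotated gene.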

How the data were processed

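The authors deposited raw, whole-number footprint counts per gene symbol, 1 list per sample. The submitters' processing notes name cutadapt 4.1, Bowtie2 2.2.6, TopHat2 2.1.0 and hg38. Not given in the sources used here were annotation, strand setting and treatment of duplicates. Overlapping genes can therefore not be told apart, and duplicated fragments may remain.

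Entries naming no gene (5 per list) were left out. They held 9.28% to 12.5% of counts for EMC6 and 2.76% to 5.15% for the other lines. A single edgeR 4.0.16 model (with limma 3.58.1 in R 4.3.3) covered all 14 libraries, with 1 mean per line and fraction, TMM factors, filterByExpr (9458 genes kept), robust quasi-likelihood testing and Benjamini-Hochberg adjustment, called at 0.05. It was tested on simulated counts. DESeq2 1.42.0, other scalings, no filter, a replicate block, each line's own libraries, leaving out bait messages and leaving out each library were the alternatives. Replicate libraries had r of 0.915 to 0.988 over genes, and all pairs differed by more than sampling noise (chi-square over its degrees of freedom, 1.91 to 7.74).

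Genes and lists were chosen with earlier results of these data known. Values per sample are given for each gene called in any IP comparison, for tested sideroflexins and MPC subunits, and for the 8 tested genes with the highest mean input CPM. Of each list up to 4 called genes are named. Positions are from the RefSeq table of GRCh38.p14, which matched all 42 genes. The labels number inputs and IPs alike within each line, and an input and an IP of the same number were taken as a pair. The deviations of the 2 libraries of a pair from their group means correlated at 0.28 (EMC6), 0.08 (EMC7) and 0.04 to 0.10 (EMC10). A planned description by protein sequence was not run, as protein sequences were not used here. Values of 1 tested gene and 1 marker are not reported here.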

Additional observations from a re-analysis of the deposited data

How the results depend on the processing

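Counts of called members depended mainly on scaling. With library size alone 7 members fell with EMC6, 3 rose and 16 fell with EMC7, 1 rose and 22 fell in the EMC10 line, 2 rose and 24 fell over the mean, and the bait differences EMC6 against EMC7 and EMC6 against EMC10 each called 1. Of all genes 45.5%, 63.7%, 75.7% and 76.9% then fell in the same comparisons, so the members' falls were near or below the general share. With EMC7, with EMC10 and over the mean 10.6%, 8.1% and 12.1% of all genes rose. With the secreted and luminal list 3 fell in the EMC6 line, 3 rose and 7 fell in the EMC7 line, 2 rose and 4 fell in the EMC10 line, 3 rose and 9 fell over the mean, 1 differed between EMC6 and EMC7, and in the EMC6 inputs 23 were higher and 0 lower. Of all genes 21.1%, 44.8%, 33.8% and 57.6% then fell in the lines and over the mean. The shares of all genes that rose with EMC7, with EMC10 and over the mean were 13.9%, 15.6% and 18%. With the matrix list 5 rose with EMC6, 9 with EMC7 and 11 over the mean, where 0 fell. Of all genes 19.8%, 23.1% and 28.1% then rose, and 10.3% fell over the mean. DESeq2 called 1 member between EMC6 and EMC7 and 3 higher in the EMC6 inputs, beside 1.4% and 7.54% of all genes. Without the filter 1 fell in each line and 2 over the mean, beside 6.42%, 6.52%, 9.21% and 18.7% of all genes. With only a line's own libraries 1 fell in the EMC7 line, where 986 of 8587 genes fell. With the replicate block 1 fell in the EMC6 line, 2 in the EMC10 line and 2 over the mean, and 1 differed between EMC6 and each other bait. Of all genes 13.3%, 18.8% and 29.7% then fell, and 6.31% and 2.22% differed between EMC6 and EMC7 or EMC10. The block could not be fitted for the inputs. The distance of the members' median from that of all genes in the EMC6 line was 0.28 with its own libraries, and in the EMC7 line 0.41 with its own libraries and 0.37 without the filter.

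The direction turned with library size alone for MPC1 (-0.63), SFXN1 (-0.93), SFXN2 (-0.78), SLC25A1 (-0.83), SLC25A4 (-0.70), SLC25A14 (-0.13), SLC25A17 (-0.36), SLC25A32 (-0.77) and SLC25A39 (-0.31) over the mean, for SLC25A17 with EMC6 (-0.020) and EMC10 (-0.44), for SLC25A26 (-0.21) and SLC25A39 (-0.20) with EMC10 and for SLC25A32 with EMC7 (-0.19). Over the mean it turned with the secreted and luminal list for SFXN1 (-0.42), SLC25A1 (-0.31), SFXN2 (-0.27), SLC25A32 (-0.26), SLC25A4 (-0.19) and MPC1 (-0.12), with the matrix list for SLC25A3 (0.20), SLC25A5 (0.07) and MPC2 (0.03), with DESeq2 for SLC25A3 (0.04) and without the filter for SFXN1 (-0.009). Leaving out each of the 14 libraries gave 2 to 4 higher and 0 to 1 lower with EMC6, 4 to 5 and 0 to 1 with EMC7, 4 to 6 and 0 to 1 with EMC10, 5 to 8 and 1 to 3 over the mean, 3 to 7 and 4 to 6 in the EMC6 inputs, and 0 to 1, 0 to 1 and 0 to 0 for the bait differences. The distance of the medians then ran from 0.10 to 0.35, 0.29 to 0.49, 0.06 to 0.21 and 0.26 to 0.35. Each refit without a library covered the calls in every line, and no call changed with bait messages left out. Depth limits the EMC6 IPs and genes with few counts, such as SLC25A44.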
